A study of Saccharomyces cerevisiae with 8 samples.

Results

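The genes described here are the 10 genes with which *Saccharomyces cerevisiae* takes up nucleobases and nucleosides and turns them back into nucleotides. They were picked by name from the annotation of the arrays, 5 transporter genes (FCY2, FCY21, FCY22, FUR4 and FUI1) and 5 salvage enzyme genes (FCY1, FUR1, URH1, URK1 and PNP1). All 10 were found, each with 1 probe, among the 6226 genes measured. In an earlier reading of these arrays URH1 and FCY22 stood among the genes whose zinc effects differed most between the 2 yeasts. All values of these 2 genes, and that difference for the other 8, are therefore given as a description with no p-value. The other 8 genes were also chosen with earlier results known.

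Total RNA of BY4741 yeast (MATa, his3, leu2, met15 and ura3 deletions) was labelled with Cy3 and hybridised to 8 one-colour Agilent arrays, with 2 biological repetitions for each of 4 conditions. The conditions were yeast expressing the plant defensin AhPDF1.1b with 20 mM ZnSO4 (WTD20), WT yeast with 20 mM ZnSO4 (WT20), yeast expressing AhPDF1.1b on control medium (WTD0) and WT yeast on control medium (WT0). AhPDF1.1b was expressed from the constitutive triose phosphate isomerase promoter of plasmid pYX212, a plasmid with the URA3 marker, and all cells carried the empty HIS3 vector pFL38H. Colonies were grown to the same small diameter on solid glucose medium containing methionine and leucine, with no uracil among the listed ingredients. The labels do not name a plasmid in place of pYX212 in WT yeast. For its real-time RT-PCR the paper used control yeast with the empty pYX212 vector. URA3 signals in WT yeast averaged 15.60 in WT20 and 15.45 in WT0, so URA3 RNA was present there too. The deleted LEU2 and MET17 genes gave 5.54 to 5.79.

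Baker's yeast makes pyrimidines and purines from simple precursors, and can also import ready-made bases and nucleosides. Fcy2 imports cytosine and purines, Fur4 uracil and Fui1 uridine. Inside the cell, cytosine is deaminated to uracil by Fcy1, uridine is split to uracil and ribose by Urh1 or phosphorylated by Urk1, and Fur1 joins uracil to phosphoribose to give UMP. Pnp1 releases purine bases from their nucleosides. Fcy21 and Fcy22 are relatives of Fcy2 whose substrates are less well defined.

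All values are log2 signals as normalized by the authors, so a difference of 1 is a doubling of signal. The array medians lay between 8.45 and 8.46, and the replicate correlation across genes ranged from 0.996 to 0.998. Background was about 5.54 to 5.79, as read from the deleted LEU2 and MET17 (met15) genes, and every value of the 10 genes lay above that. The MATa markers STE2, BAR1, MFA1 and MFA2 gave 7.14 to 11.1, and the MATalpha markers STE3, MF(ALPHA)1 and SAG1 gave 5.84 to 8.41. These ranges overlapped, and each MATa marker averaged lower with zinc in both yeasts. Under zinc SAG1 averaged 8.01 in WTD20 and 7.66 in WT20, above BAR1 at 7.30 and 7.18. The markers thus do not show the mating type by themselves. The arrays lay on 2 slides, by the array id of the labels. Both WTD20 arrays were on slide 1 and both WT20 arrays on slide 2, whereas each control condition had 1 array on each. The slide and AhPDF1.1b expression under zinc therefore cannot be told apart within slides. Fewer cells expressing a gene and less of its RNA per cell cannot be told apart in such bulk RNA.

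URH1, FCY22, FCY21, FCY1 and FUR4 were highest in WT20, whereas PNP1, FUR1 and, within a small range, URK1 had their lowest signals there. The share of all genes with their highest or lowest signals in WT20 was not counted. Zinc in WT yeast changed 59.3% of all genes past the threshold. The uridine permease gene FUI1 was lower under zinc in both yeasts, and FCY2 and URK1 varied little. The plot of signals by array shows all 10 genes.

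**Figure D1:**
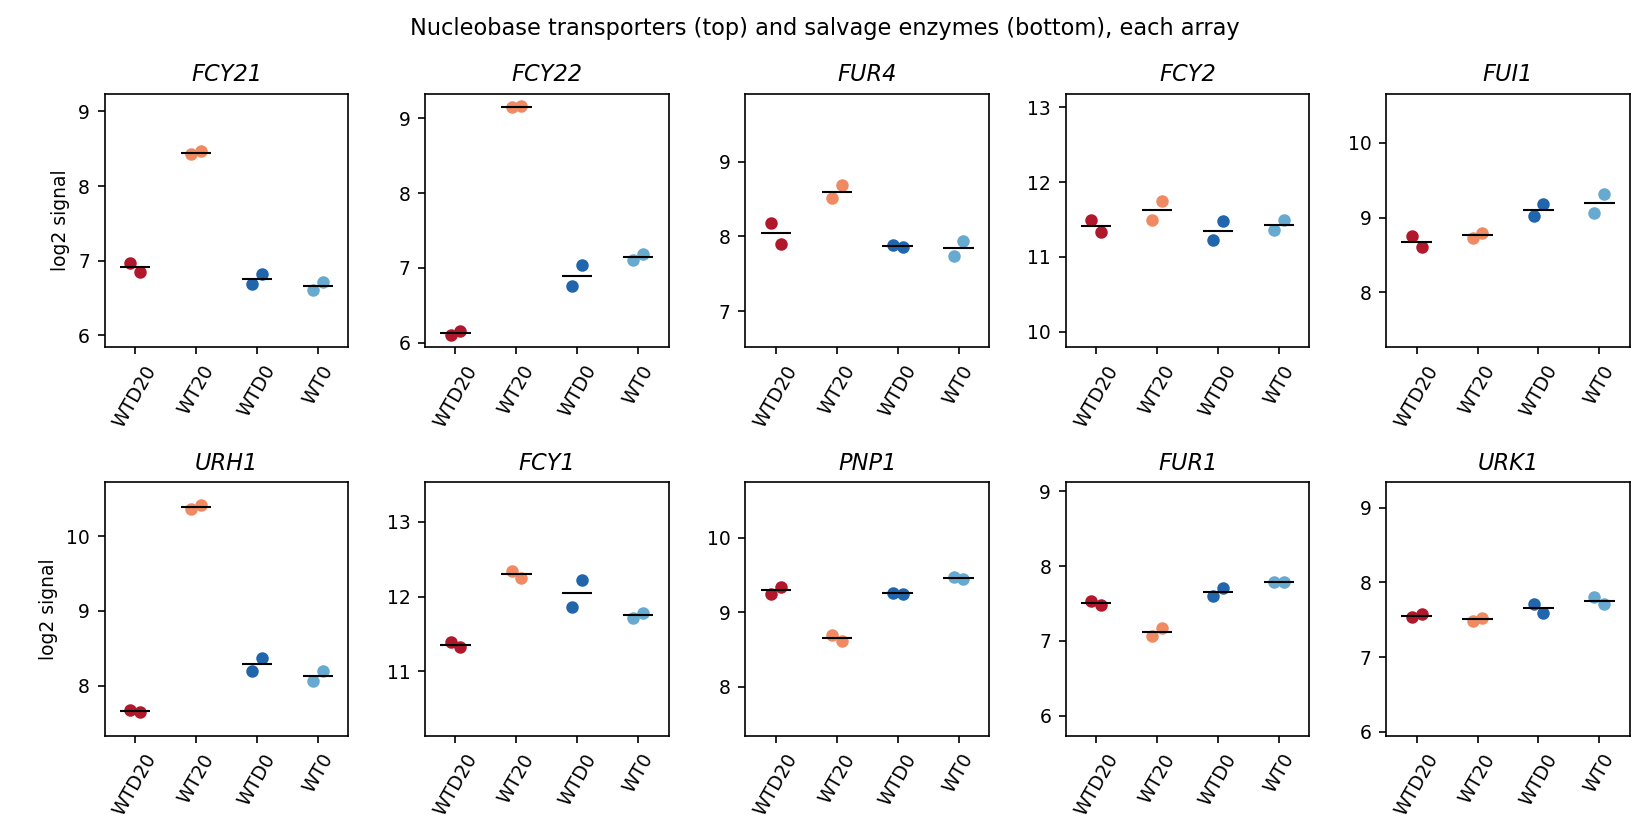
Log2 signal (y axis, the same span of 3.4 units in every panel) of the 10 genes in WTD20, WT20, WTD0 and WT0 (x axis), with 1 point per array and a line at the mean of the 2 arrays. In URH1, FCY22 and FCY21 both WT20 arrays stand above the 6 other arrays by more than 1 unit, and in PNP1 and FUR1 both WT20 arrays are the lowest.

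Among the transporters, FCY22 (YER060W-A) had log2 signals of 6.10 and 6.16 in WTD20, 9.15 and 9.16 in WT20, 6.75 and 7.04 in WTD0, and 7.11 and 7.19 in WT0. The 4 conditions did not overlap, with WT20 highest and WTD20 lowest. In AhPDF1.1b yeast the zinc difference was -0.76 (SE 0.091), a 1.70-fold lower signal with zinc. In WT yeast it was 2.01 (SE 0.091), a 4.03-fold higher signal. Under zinc, FCY22 was thus 8.13-fold lower in AhPDF1.1b yeast than in WT yeast (log2 difference -3.02, SE 0.091). This difference ranked 5 of 6226 from the lowest. FCY22 had been picked by a value that includes it, so the rank follows from that choice.

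FCY21 (YER060W) lies directly beside FCY22, with 0 protein-coding genes between them in the R64 assembly, and 4 such genes separate it from FCY2. Its signals were 6.98 and 6.84 in WTD20, 8.42 and 8.47 in WT20, 6.69 and 6.83 in WTD0, and 6.61 and 6.72 in WT0. Only WT20 stood clearly apart, since the other 6 arrays lay within a narrow range in which WTD0 and WT0 overlapped. For AhPDF1.1b yeast the zinc difference was 0.15 (SE 0.079, adjusted p = 0.14, limma), with a 95% confidence interval of -0.02 to 0.33. In WT yeast FCY21 rose 3.43-fold with zinc (log2 difference 1.78, SE 0.079, adjusted p = 2.6e-08), which ranked 77 of 6226 from the highest. Under zinc FCY21 was 2.90-fold lower in AhPDF1.1b yeast than in WT yeast (log2 difference -1.53, SE 0.079, adjusted p = 2.3e-07).

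FUR4 (YBR021W), the uracil permease gene, gave 8.18 and 7.90 in WTD20, 8.51 and 8.68 in WT20, 7.88 and 7.86 in WTD0, and 7.75 and 7.94 in WT0. WT20 was again above all other arrays, and the other 3 conditions overlapped or nearly so. AhPDF1.1b yeast gave a zinc difference of 0.17 (SE 0.10, adjusted p = 0.20), and without WTD20 replicate 2, the lower of the WTD20 arrays, it was 0.31 (adjusted p = 0.046). FUR4 rose 1.69-fold with zinc in WT yeast (0.76, SE 0.10, adjusted p = 9.6e-05). Under zinc FUR4 was 1.47-fold lower in AhPDF1.1b yeast than in WT yeast (-0.56, SE 0.10, adjusted p = 0.0013).

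The other transporters did not share this pattern. FCY2 (YER056C), the purine and cytosine permease gene, stayed between 11.2 and 11.8 on all arrays, and the conditions overlapped. Its log2 difference between WTD20 and WT20 was -0.21 with a 95% confidence interval of -0.46 to 0.04, so that a decrease within that interval could not be told from none. FUI1 (YBL042C), the uridine permease gene, gave 8.75 and 8.60 in WTD20, 8.73 and 8.80 in WT20, 9.02 and 9.18 in WTD0, and 9.06 and 9.32 in WT0. The zinc arrays all lay below the control arrays, and the 2 yeasts overlapped within each medium. FUI1 fell by 0.42 with zinc in AhPDF1.1b yeast (SE 0.099, adjusted p = 0.0054) and fell by 0.43 in WT yeast (SE 0.099, adjusted p = 0.0033). The similarity of FCY2, FCY21 and FCY22 means that a probe could take up signal of its relatives, and the probe sequences were not used here.

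Among the enzymes, URH1 (YDR400W), which encodes the uridine nucleosidase, had signals of 7.68 and 7.64 in WTD20, 10.36 and 10.41 in WT20, 8.20 and 8.37 in WTD0, and 8.07 and 8.20 in WT0. WT20 was highest and WTD20 lowest, and the 2 control conditions overlapped. With zinc the signal was 1.54-fold lower in AhPDF1.1b yeast (log2 difference -0.63, SE 0.079) and 4.77-fold higher in WT yeast (2.25, SE 0.079). Under zinc URH1 was 6.62-fold lower in AhPDF1.1b yeast than in WT yeast (log2 difference -2.73, SE 0.079). This difference ranked 6 of 6226 from the lowest, next to FCY22. URH1 too had been picked by a value that includes it, so the rank follows from that choice. HPT1, the neighbouring gene of URH1 in R64, which encodes the hypoxanthine-guanine phosphoribosyltransferase, went another way. HPT1 fell by 0.77 with zinc in AhPDF1.1b yeast (SE 0.083, adjusted p = 3.4e-05) and fell by 0.60 in WT yeast (SE 0.083, adjusted p = 0.00010).

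FCY1 (YPR062W), the cytosine deaminase gene, gave 11.39 and 11.32 in WTD20, 12.35 and 12.25 in WT20, 11.86 and 12.22 in WTD0, and 11.72 and 11.78 in WT0. The 4 conditions did not overlap, although WTD0 replicate 2 came close to WT20. FCY1 fell 1.61-fold with zinc in AhPDF1.1b yeast (-0.68, SE 0.11, adjusted p = 0.00043) and rose 1.46-fold with zinc in WT yeast (0.54, SE 0.11, adjusted p = 0.0011). It thus passed the test in opposite directions in the 2 yeasts, and the share of all genes that did so was not counted. Under zinc its signal was 1.92-fold lower in AhPDF1.1b yeast than in WT yeast (-0.94, SE 0.11, adjusted p = 4.8e-05).

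PNP1 (YLR209C), which encodes the purine nucleoside phosphorylase, showed the reverse order. Its signals were 9.24 and 9.34 in WTD20, 8.70 and 8.62 in WT20, 9.26 and 9.25 in WTD0, and 9.47 and 9.44 in WT0. Both WT20 arrays lay below all others, and WTD20 overlapped with WTD0. AhPDF1.1b yeast gave a zinc difference of 0.04 (SE 0.068, adjusted p = 0.66), whereas PNP1 fell 1.73-fold with zinc in WT yeast (-0.79, SE 0.068, adjusted p = 3.4e-06). Under zinc it was 1.55-fold higher in AhPDF1.1b yeast than in WT yeast (0.63, SE 0.068, adjusted p = 3.7e-05).

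FUR1 (YHR128W), the uracil phosphoribosyltransferase gene, gave 7.53 and 7.48 in WTD20, 7.06 and 7.17 in WT20, 7.59 and 7.70 in WTD0, and 7.79 and 7.79 in WT0. The order from high to low was WT0, WTD0, WTD20 and WT20, with no overlap. AhPDF1.1b yeast gave a zinc difference of -0.15 (SE 0.072, adjusted p = 0.12), and FUR1 fell 1.59-fold with zinc in WT yeast (-0.67, SE 0.072, adjusted p = 1.6e-05). Under zinc it was 1.31-fold higher in AhPDF1.1b yeast than in WT yeast (0.39, SE 0.072, adjusted p = 0.0013). FUR1 and FUR4, which act in turn on uracil as it enters the cell and the UMP pool, thus moved in opposite directions in WT yeast under zinc.

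URK1 (YNR012W), the uridine kinase gene, varied only between 7.49 and 7.80 over all arrays. It fell by 0.25 with zinc in WT yeast (SE 0.071, adjusted p = 0.011), a call that was lost without WT20 replicate 1 (adjusted p = 0.061) and without WT0 replicate 1 (adjusted p = 0.10). Its difference between WTD20 and WT20 was 0.05 with a 95% confidence interval of -0.11 to 0.21. Urh1 cleaves uridine and Urk1 phosphorylates it, and the range over the 8 arrays was 2.77 units for URH1 and 0.32 for URK1. URH1 had been picked for its difference between zinc effects on these arrays, so its wide range follows from that choice.

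**Figure D2:**
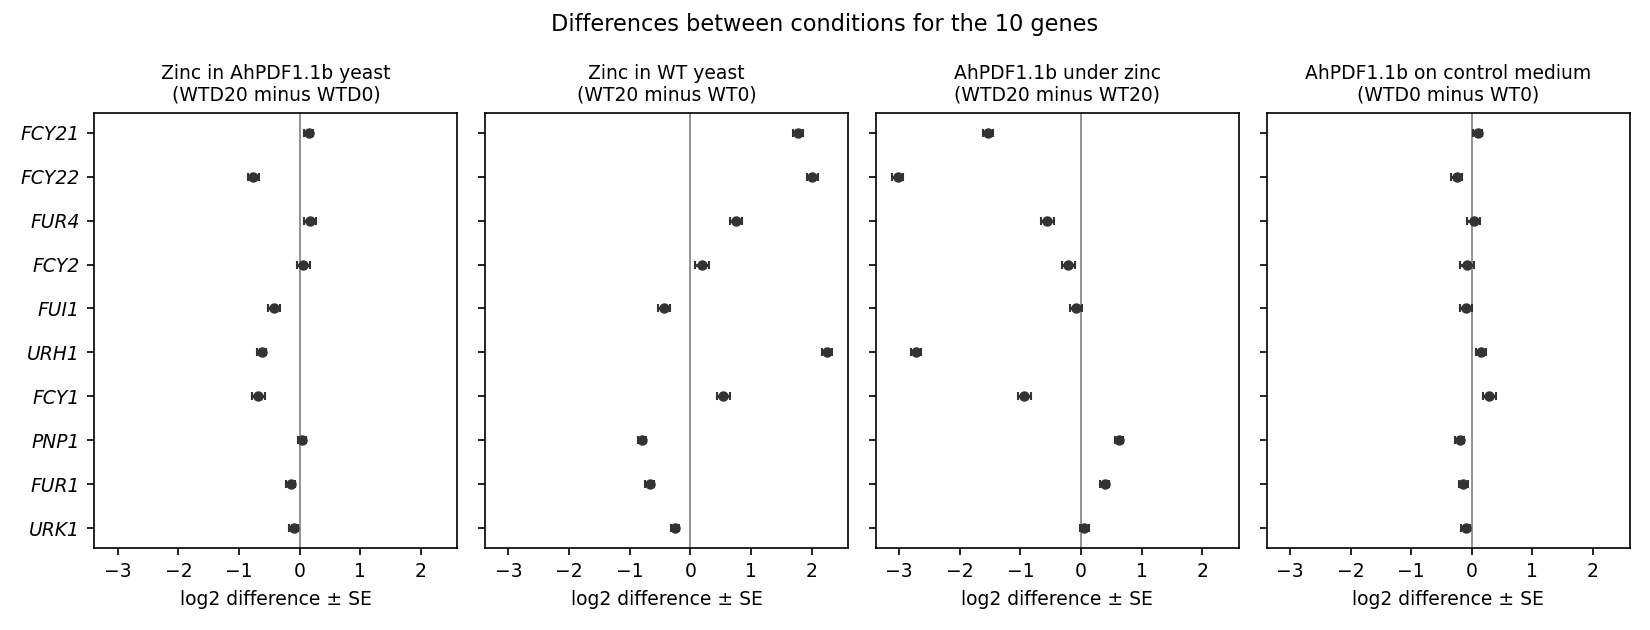
Log2 difference (x axis) of each of the 10 genes (y axis) in 4 comparisons, with bars of 1 SE from the fit over all genes. The differences spread from -0.76 to 0.17 for zinc in AhPDF1.1b yeast, from -0.79 to 2.25 for zinc in WT yeast and from -0.25 to 0.29 for AhPDF1.1b on control medium.

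Counted over the 8 genes that were tested, 0 rose and 2 fell with zinc in AhPDF1.1b yeast (0 and 2 also at an unadjusted p under 0.05, limma), beside 21.8% of all 6226 genes that rose and 24.0% that fell, 45.8% together. Zinc in WT yeast raised 3 and lowered 4 of the 8, beside 27.8% and 31.5% of all genes, 59.3% together. The median zinc difference of the 8 was -0.03 in AhPDF1.1b yeast and -0.03 in WT yeast, beside -0.01 and -0.03 for all genes. The arrays with and without zinc did not overlap for 6 of the 8 in AhPDF1.1b yeast (70.9% of all genes) and for 7 of the 8 in WT yeast (80.6%). Within slide 1, the zinc difference in AhPDF1.1b yeast was -0.91 for FCY22, -0.71 for URH1, -0.87 for FCY1 and 0.08 for FCY21. Within slide 2, the zinc difference in WT yeast was 1.97, 2.19, 0.51 and 1.73 in the same order of genes.

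AhPDF1.1b expression on control medium changed none of these genes past the threshold. Of the 8 tested genes 0 passed in limma (2 at an unadjusted p under 0.05, PNP1 and FCY1), beside 5.65% of all genes, 3.00% that rose and 2.65% that fell. The arrays of the 2 yeasts did not overlap for 3 of the 8, beside 48.5% of all genes. The values for PNP1 were -0.20 (SE 0.068, adjusted p = 0.12) and for FCY1 0.29 (SE 0.11, adjusted p = 0.15). That of FCY1 rested on WTD0 replicate 2, with 0.50 within slide 1 and 0.08 within slide 2, and passed without WTD0 replicate 1 (0.47, adjusted p = 0.025). FCY22 was 1.19-fold lower in WTD0 than in WT0 and URH1 1.11-fold higher, both small beside their differences under zinc.

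Under zinc, AhPDF1.1b expression was accompanied by higher signals for 2 of the 8 tested genes and lower signals for 3, beside 26.8% and 22.0% of all genes, 48.8% together. The arrays of the 2 yeasts did not overlap for 6 of the 8, beside 73.8% of all genes. The 3 that fell were FCY21, FCY1 and FUR4 and the 2 that rose were PNP1 and FUR1. With slide as a block, where only the control arrays show how the slides differ, all 5 still passed, but FUR4 (-0.45, adjusted p = 0.049) and FUR1 (0.34, adjusted p = 0.044) came close to the threshold. The corresponding values without a test were -3.13 for FCY22 and -2.75 for URH1.

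The zinc difference in AhPDF1.1b yeast minus that in WT yeast was -2.88 for URH1 and -2.77 for FCY22. These ranked 7 and 9 of 6226 from the lowest, and both genes had been picked by this value, so the ranks follow from that choice. The value was -1.63 for FCY21, -1.23 for FCY1 and -0.59 for FUR4. On the other side it was 0.83 for PNP1 and 0.53 for FUR1, and for URK1, FUI1 and FCY2 it was 0.15, 0.01 and -0.13. In the fit over all genes this difference passed the threshold for 33.6% of all genes, above 0 for 17.7% and below 0 for 16.0%.

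**Figure D3:**
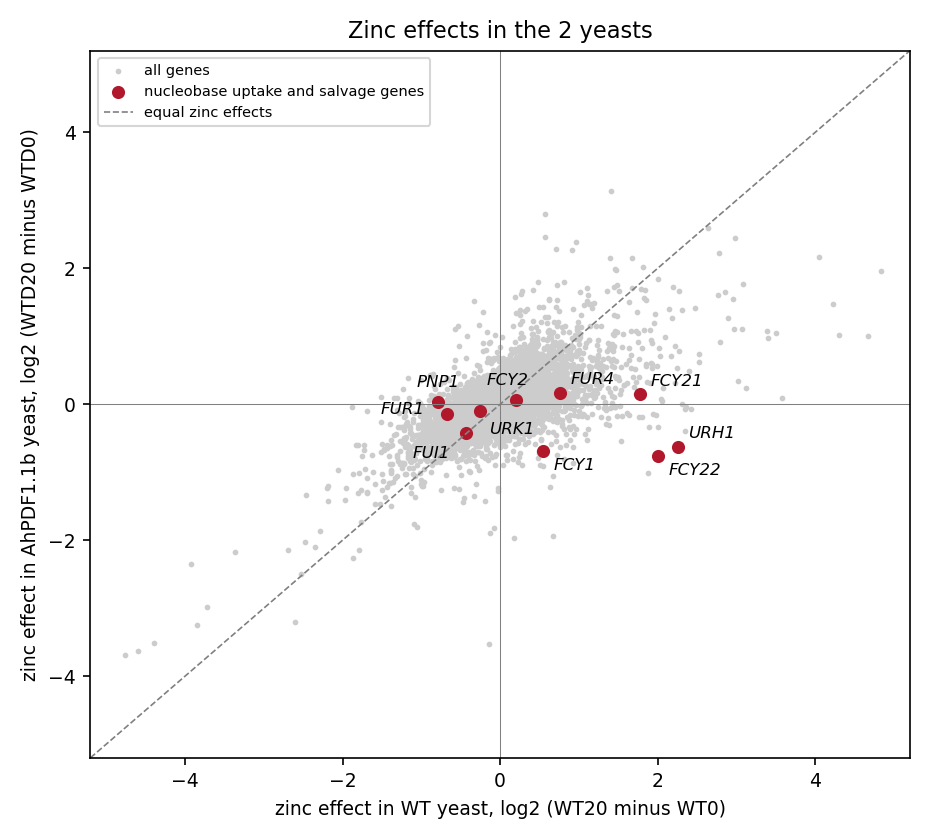
Zinc effect in AhPDF1.1b yeast (y axis, WTD20 minus WTD0, log2) against the zinc effect in WT yeast (x axis, WT20 minus WT0, log2), with grey points for all genes, red points for the 10 genes and a dashed line where both effects are equal. URH1 (-0.63 in AhPDF1.1b yeast and 2.25 in WT yeast), FCY22 (-0.76 and 2.01) and FCY1 (-0.68 and 0.54) lie below 0 on the y axis and above 0 on the x axis.

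Genes with a course over the 8 arrays like that of URH1 or FCY22 were sought among genes with a symbol, leaving out the members. For URH1 the closest were CUS1, SNM1, HIS6, PEA2 and ADE12, with Pearson correlations of 0.996, 0.993, 0.992, 0.992 and 0.991. For FCY22 they were HIS6, ADE12, DYS1, RHB1 and RRN11, with 0.990, 0.989, 0.988, 0.988 and 0.986. HIS6, of histidine synthesis, and ADE12, the adenylosuccinate synthase gene, were thus on both lists. Their zinc effects were smaller, -0.19 in AhPDF1.1b yeast and 0.60 in WT yeast for HIS6 and -0.23 and 0.79 for ADE12. The arrays form 4 conditions, so these correlations largely compare 4 levels.

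The wider pathway was examined through lists of genes. De novo pyrimidine synthesis is the route that makes UMP without salvage. The list of 9 genes under this heading also held URA6, URA7 and URA8, which act after UMP, and the regulator PPR1. It left out URA3, the plasmid marker. Of the 9 genes, 3 had higher and 3 had lower signals past the threshold in WTD20 than in WT20. Of all genes 26.8% were higher and 22.0% lower. The median of the list was -0.13 beside 0.03 for all genes. URA6, the UMP kinase gene, and URA10, which encodes the minor orotate phosphoribosyltransferase, fell by 1.35 (adjusted p = 7.8e-06) and 1.14 (adjusted p = 4.0e-06), whereas URA1, the dihydroorotate dehydrogenase gene, rose by 1.13 (adjusted p = 2.2e-06). URA1 was also 0.33 higher with AhPDF1.1b on control medium (adjusted p = 0.037), which did not pass with slide as a block (adjusted p = 0.052) and depended on single arrays, with an adjusted p of 0.23 without WT0 replicate 1, the highest of those fits.

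Like URH1 and FCY1, both URA6 and URA10 were highest in WT20 and lowest in WTD20. URA6 had signals of 8.99 and 9.24 in WTD20, 10.54 and 10.39 in WT20, 9.95 and 9.78 in WTD0, and 9.88 and 9.59 in WT0. Zinc lowered URA6 by 0.75 in AhPDF1.1b yeast (adjusted p = 0.00042) and raised it by 0.73 in WT yeast (adjusted p = 0.00027). For URA10 the zinc difference was -0.32 in AhPDF1.1b yeast (adjusted p = 0.013) and 0.93 in WT yeast (adjusted p = 6.8e-06). Its call in AhPDF1.1b yeast was lost without WTD20 replicate 1 (adjusted p = 0.097) and without WTD0 replicate 2 (adjusted p = 0.083). URA7, the CTP synthase gene, fell with zinc in both yeasts, by 0.88 in AhPDF1.1b yeast (adjusted p = 0.00016) and by 1.22 in WT yeast (adjusted p = 7.7e-06). The URA3 marker of the plasmid averaged 14.475 in WTD20, 15.60 in WT20, 14.32 in WTD0 and 15.45 in WT0, and the part of this difference between the yeasts in the pyrimidine genes was not tested.

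Among other genes of pyrimidine salvage and interconversion, 1 of 8 was higher and 4 were lower past the threshold in WTD20 than in WT20. Of all genes 26.8% were higher and 22.0% lower. The median of the list was -0.12 beside 0.03 for all genes. PHM8, which encodes a nucleotidase that releases nucleosides from nucleotides, had the clearest change and fell by 0.84 (SE 0.090, adjusted p = 3.5e-05). Its signals were 9.08 and 8.94 in WTD20, 9.79 and 9.91 in WT20, 8.28 and 8.08 in WTD0, and 7.79 and 7.88 in WT0. Unlike URH1, PHM8 rose with zinc in both yeasts, by 0.83 in AhPDF1.1b yeast (adjusted p = 3.8e-05) and by 2.02 in WT yeast (adjusted p = 2.7e-08). The thymidylate kinase gene CDC8 fell by 0.35 with AhPDF1.1b under zinc (adjusted p = 0.0019) and the nucleoside diphosphate kinase gene YNK1 rose by 0.26 (adjusted p = 0.012). With slide as a block neither passed (adjusted p = 0.057 for CDC8 and 0.12 for YNK1), and YNK1 was also lost without WTD20 replicate 1 (adjusted p = 0.061) or WT20 replicate 1 (adjusted p = 0.080).

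Purine salvage and interconversion was represented by 10 of 12 listed genes, of which 5 were higher and 3 lower past the threshold in WTD20 than in WT20. Of all genes 26.8% were higher and 22.0% lower. The median of the list was 0.21 beside 0.03 for all genes. ADK1, the adenylate kinase gene, had 11.36 and 11.47 in WTD20, 10.73 and 10.72 in WT20, 12.09 and 11.91 in WTD0, and 11.81 and 11.80 in WT0. ADK1 thus had its lowest level in WT20, as PNP1 did, and was higher by 0.69 with AhPDF1.1b under zinc (SE 0.077, adjusted p = 4.7e-05). With zinc it fell by 0.59 in AhPDF1.1b yeast (adjusted p = 0.00014) and by 1.08 in WT yeast (adjusted p = 8.6e-07). APT2 rose by 0.49 (adjusted p = 0.00016) and APT1, the adenine phosphoribosyltransferase gene, fell by 0.43 (adjusted p = 0.0012) with AhPDF1.1b under zinc. On control medium the difference was 0.31 for APT2 (adjusted p = 0.022) and -0.31 for APT1 (adjusted p = 0.049). Among the alternatives the APT1 call held only with quantile normalization and with median centring (adjusted p = 0.083 with slide as a block). APT2 did not pass with only the arrays compared (adjusted p = 0.052). Both lost these calls on control medium without any 1 of the WTD0 and WT0 arrays, with adjusted p-values up to 0.15 for APT2 (without WT0 replicate 2) and 0.33 for APT1 (without WT0 replicate 1).

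De novo purine synthesis was represented by 15 of 16 listed genes, of which 7 were higher and 3 lower past the threshold in WTD20 than in WT20. Of all genes 26.8% were higher and 22.0% lower. The median of the list was 0.18 beside 0.03 for all genes. IMD2, an IMP dehydrogenase gene of the guanine branch, rose by 0.82 (adjusted p = 1.2e-05), and ADE12, of the adenine branch, fell by 1.02 (adjusted p = 1.8e-06). ADE4, for the first step of the pathway, fell by 0.61 (adjusted p = 5.4e-05). The signals of IMD2 were 7.19 and 7.18 in WTD20, 6.36 and 6.38 in WT20, 8.37 and 8.40 in WTD0, and 8.46 and 8.65 in WT0. Its decrease with zinc was 1.20 in AhPDF1.1b yeast (adjusted p = 6.6e-07) and 2.19 in WT yeast (adjusted p = 3.4e-09) on the log2 scale.

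Of the other transporters of this kind, 3 of 6 listed genes were matched by name. DAL4, the allantoin permease gene and a relative of FUR4, had signals of 8.15 and 8.18 in WTD20, 7.19 and 7.13 in WT20, 6.99 and 6.90 in WTD0, and 6.81 and 6.66 in WT0. Unlike FUR4, DAL4 was highest in WTD20. It rose with zinc by 1.22 in AhPDF1.1b yeast (adjusted p = 5.4e-07) and by 0.42 in WT yeast (adjusted p = 0.00054), and was 1.01 higher with AhPDF1.1b under zinc (adjusted p = 2.8e-06). FUN26, for a nucleoside transporter of intracellular membranes, was 0.63 higher with AhPDF1.1b under zinc (adjusted p = 2.9e-05). THI7, the thiamine permease gene of the same family as FUR4, differed by -0.46 with AhPDF1.1b on control medium (adjusted p = 0.0055) and by -0.20 under zinc (adjusted p = 0.042). The value under zinc did not pass with slide as a block (adjusted p = 0.13) or without any 1 of the WTD20 and WT20 arrays (adjusted p up to 0.16, without WT20 replicate 2), and that on control medium did not pass without WT0 replicate 2 (adjusted p = 0.055).

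**Figure D4:**
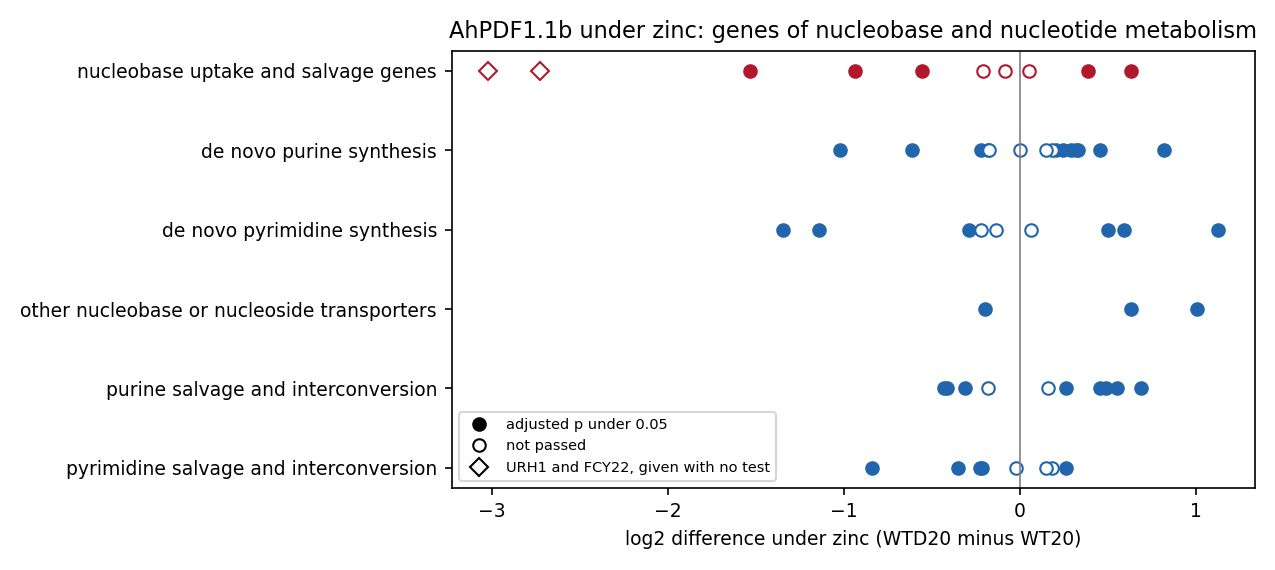
Log2 difference with AhPDF1.1b under zinc (x axis, WTD20 minus WT20) of the 10 genes and of each measured gene of 5 lists (y axis), with filled circles for an adjusted p under 0.05, open circles for genes that did not pass and diamonds for URH1 and FCY22. The diamonds lie at -3.02 and -2.73, and the lowest gene of the 5 lists is URA6 at -1.35. URH1 and FCY22 had been picked by a value that includes this difference, so their distance from the lists follows from that choice.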

How the data were processed

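The deposited values were log2 signals of 6227 probes on 8 one-colour arrays, processed by the authors in R 2.14.2 with limma according to the submitters' notes. Replicates were not pooled. The methods of background correction, of normalization and of filtering are not given in the sources consulted, and nearly equal quantiles show that arrays were normalized to each other. The values carry no detection calls, and the number of arrays limits the precision. Probes were named from the platform annotation (4061 with 1 symbol, 0 with several, 2166 unnamed), and the RefSeq table of the R64 assembly gave the current symbol for 125 older ones and was used for names and gene order only. The files give no coordinates. Probes of a gene with several probes (1 gene) were averaged, which left 6226 genes.

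The 4 condition means were fitted over all genes and arrays in limma 3.58.1 (R 4.3.3) with lmFit and eBayes (degrees of freedom: 4 residual, 6.36 prior). Benjamini-Hochberg adjustment of p-values ran over the whole table, separately in each of 5 comparisons, with a threshold of 0.05, no minimum fold change and no filter on dim genes. The steps were tested on simulated data. P-values measure the spread between biological repetitions, 2 per condition. The repetitions of WTD20 shared a slide, as did those of WT20, so their spread holds no difference between slides. In each control condition it does. The p-values for WTD20 against WT20 thus do not fully account for the slide. The members and lists were chosen with earlier results of these data known. All members are named, with up to 3 genes of each list by smallest p in a comparison. Also named are the 5 genes most correlated with URH1 and with FCY22, out of the 4060 genes with a symbol and without the members. Some further values of genes so named are given in other comparisons. Alternatives were quantile normalization, median centring, removal of the dimmest 25%, blocks for slide or for replicate, robust moderation with an intensity trend, only the arrays compared, and leaving out each array.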

Additional observations from a re-analysis of the deposited data

Results flagged for a closer look

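The difference between the zinc effects of the 2 yeasts drew attention in URH1, FCY22, FCY21, FCY1, FUR4, FUR1 and PNP1. URH1 and FCY22 had been picked out by this very value, and it is given for all of them as a description with no test. The effect with AhPDF1.1b minus the effect in WT yeast was -2.88 for URH1, -2.77 for FCY22, -1.63 for FCY21, -1.23 for FCY1 and -0.59 for FUR4 on the log2 scale. It was 0.53 for FUR1 and 0.83 for PNP1. In URH1, FCY22 and FCY1 zinc went with lower signals in AhPDF1.1b yeast and higher signals in WT yeast, without overlap. Arrays with and without zinc did not overlap for 70.9% of all genes in AhPDF1.1b yeast and for 80.6% in WT yeast. The share of all genes with such opposite changes was not counted. With slide as a block the values were -2.90 for URH1, -2.88 for FCY22, -1.65 for FCY21, -1.38 for FCY1, -0.48 for FUR4, 0.48 for FUR1 and 0.83 for PNP1. No threshold is applied to these values, and those of FUR4 and FUR1 were smaller in size in that fit. Both arrays of WTD20 were on slide 1 and both of WT20 on slide 2, and a slide effect on the zinc arrays alone cannot be told apart from this difference.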

How the results depend on the processing

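For the 8 tested genes in the 4 comparisons with a test, 220 of 220 differences under other settings with all arrays and the repetition numbers as given kept their side of the threshold, and their direction unless they moved by less than the spread between replicates. FCY21 and FCY22 have no value without the dimmest 25% of genes, since both belong to that part. With an array left out, 250 of 256 did so, and the count of the 8 tested genes past the threshold ranged from 6 to 7 for zinc in WT yeast, from 2 to 3 for zinc in AhPDF1.1b yeast, from 0 to 1 for AhPDF1.1b on control medium, and was 5 in every such fit for AhPDF1.1b under zinc. Of 544 refits of the 35 called differences of other pathway genes, 502 kept direction and call, 42 lost the call and 0 changed direction, all 42 in URA10, THI7, APT1, APT2, URA1, CDC8 and YNK1. Over all genes, AhPDF1.1b under zinc changed 28.2% with slide as a block (48.8% without it), the zinc effects differed for 20.2% (33.6%), and AhPDF1.1b on control medium changed 1.51% and 1.57% without WT0 replicate 1 or 2 and 3.31% and 3.53% without WTD0 replicate 1 or 2 (5.65% with all arrays). The deviations of arrays with the same repetition number correlated from -0.53 to 0.54 between conditions, so the numbers were not taken to pair the samples. With replicate as a block, 31.0% of all genes passed in the comparison of zinc effects and 46.8% for AhPDF1.1b under zinc, and it changed the call of 0 of the 8 genes in the 4 comparisons. With the WTD20 numbers crossed, an alternative chosen after seeing the data, 3382 genes passed for zinc in AhPDF1.1b yeast (3 of the 8 against 2, with FCY21 added), 3521 for AhPDF1.1b under zinc (6 of the 8 against 5, with FCY2 added) and 2719 for the comparison of zinc effects. With 2 arrays per condition and no detection calls, differences as small as those of FCY2 depended on the design.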
